A study of Homo sapiens with 4 samples.

Results

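Glycolysis, the cytosolic pathway that breaks glucose down to pyruvate and lactate, was followed here through 10 of its genes, taken by symbol from a table of 23284 gene symbols: SLC2A1, HK1, HK2, GPI, PFKP, ALDOA, GAPDH, PGK1, ENO1 and LDHA. All 10 symbols were found, each on a single row, and all 10 passed the expression limit used below in every library. The table came from HEK-293 cells, a human embryonic kidney line, in which the zinc finger genes ZSCAN5A and ZSCAN5B were targeted with short interfering RNAs (siRNAs). Knockdown libraries, 1 for ZSCAN5A siRNA si4, 1 for ZSCAN5A siRNA si5 and 1 for ZSCAN5B siRNA si1, were set against 1 library of cells given a scrambled, non-targeting siRNA. Every culture was transfected with 10 nM siRNA and harvested after 48 h, so all 4 libraries share the transfection reagent and the exposure time. The question for these genes was whether their transcripts moved when ZSCAN5A or ZSCAN5B was targeted.

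Glucose enters the cell through carriers such as SLC2A1 and is trapped by phosphorylation, after which a series of enzymes splits the sugar and recovers its energy as ATP and NADH. Cells in culture run this pathway fast, and lactate dehydrogenase returns the NADH to NAD+ by making lactate. The transcription factors MYC, the hypoxia-inducible factors (HIFs) and the glucose-sensing MLX partners are known to bind E-box or related DNA elements near many of these genes.

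Levels are given as FPKM (fragments scaled to transcript length and to the number of mapped fragments), which corrects for transcript length and for depth, so that genes can be set side by side. With 1 library per siRNA there was no replicate of any condition. The distance between si4 and si5, which hit the same gene with different sequences, was the single measure of spread. The study reports that these siRNAs acted unequally on genes related to ZSCAN5A, so the distance can hold such effects too. A gene was called past a 1.5-fold difference of FPKM, provided that it reached 1 FPKM in some library of the comparison and was above 0 on each side, and no p-value was attached to such calls. Low FPKM values moved in whole-fragment steps. From these steps the depths of si4, si5 and si1 came to 1.09, 1.54 and 1.02 times that of the control. These estimates differ more than the range of reads per sample stated by the study, and the cause was not tested. The control came to about 51100000 fragments, with quartiles over genes of 39300000 and 55100000. At that depth the members in the control rested on an estimated 3300 or more fragments each, and their counting error was between 0.229% for GAPDH and 1.73% for HK2, which covers sampling of fragments only.

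The knockdown of ZSCAN5A was visible in its own transcript, with 0.730 FPKM in si4 and 0.713 FPKM in si5, against 2.53 FPKM in si1 and 2.42 FPKM in the control. ZSCAN5B was measured at 0.0331 FPKM in si4, 0.0663 FPKM in si5, 0.0948 FPKM in si1 and 0.0903 FPKM in the control. The transcript was not measurably lower in the library labelled ZSCAN5B knockdown than in the control, but these values rest on an estimated 9 and 8 fragments, too few at this depth to show or to deny a knockdown. The study's PCR and protein measurements of the knockdown were not analysed here, and that library is named by its label throughout. The HEK-293 markers VIM, KRT8, KRT18 and NEFL were present in every library, between 37.0 and 359 FPKM, whereas PAX2 was between 0.584 and 1.16 FPKM. The blood, liver and skeletal muscle markers were all at or below 0.226 FPKM.

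The siRNAs are shown because a short siRNA can also touch transcripts that match only its seed, bases 2 to 8 of the guide strand. Each line gives the targeted 21 bases, 5′ to 3′ in the sense of the target transcript, with the letters that pair with the seed in capitals.
si4 (ZSCAN5A): cgagaagaggtttACGTGTAa
si5 (ZSCAN5A): aagctagtcatccACAAGAGa
si1 (ZSCAN5B): acgtgtgcaataaATCATTTa

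None of the 10 glycolysis transcripts held a full match to any of the 3 siRNAs. The seed match of si4 was found in 6.34% of 19894 canonical protein-coding transcripts (GENCODE, GRCh37) and in 0 of the 10. The seed match of si5 was found in 25.01% of transcripts and in 2 of the 10, GAPDH and ENO1, with 1 match each. The seed match of si1 was found in 26.8% of transcripts and in 1 of the 10, LDHA, with 1 match. The 3 sites are given below with 13 bases before and 1 base after the seed match, which is in capitals.
ENO1 and si5, coding sequence, exon 5 of 12, chr1:8928093-8928099, minus strand: tgaacgtcacagaACAAGAGa
GAPDH and si5, 3′ UTR, exon 9 of 9, chr12:6647367-6647373, plus strand: ccccagcaagagcACAAGAGg
LDHA and si1, 3′ UTR, exon 8 of 8, chr11:18428845-18428851, plus strand: cttctgatgtcatATCATTTc

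The levels of the 10 genes spanned more than 2 orders of magnitude on the FPKM scale, and their order was nearly fixed across libraries. GAPDH was highest at 3177 ± 334 FPKM (SD over the 4 libraries), followed by ENO1 at 1009 ± 150 and LDHA at 561 ± 46.5 FPKM. PGK1 at 461 ± 28.8 and ALDOA at 459 ± 31.3 FPKM could not be ordered, since their ranges overlapped almost completely, and the lowest LDHA value, 497 FPKM, lay just under the highest PGK1 value, 498 FPKM. Then came GPI at 156 ± 0.965, PFKP at 78.2 ± 4.796, HK1 at 38.3 ± 2.88, SLC2A1 at 20.003 ± 1.94 and HK2 at 11.8 ± 0.665 FPKM, with no overlap between any neighbours from ALDOA downwards. Transcripts of the lower, energy-recovering part of the pathway were thus higher in FPKM than those of SLC2A1, HK1 and HK2. Enzyme protein was not measured in these libraries. Together the 10 genes made up 1.15% of all FPKM in the control, 1.14% in si4, 1.16% in si5 and 1.07% in si1. These shares depend on the FPKM total, which was 488036 in the control, 546239 in si4, 539502 in si5 and 537181 in si1. The 10 genes summed to 5623 FPKM in the control, 6253 in si4, 6251 in si5 and 5755 in si1.

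**Figure D1:**
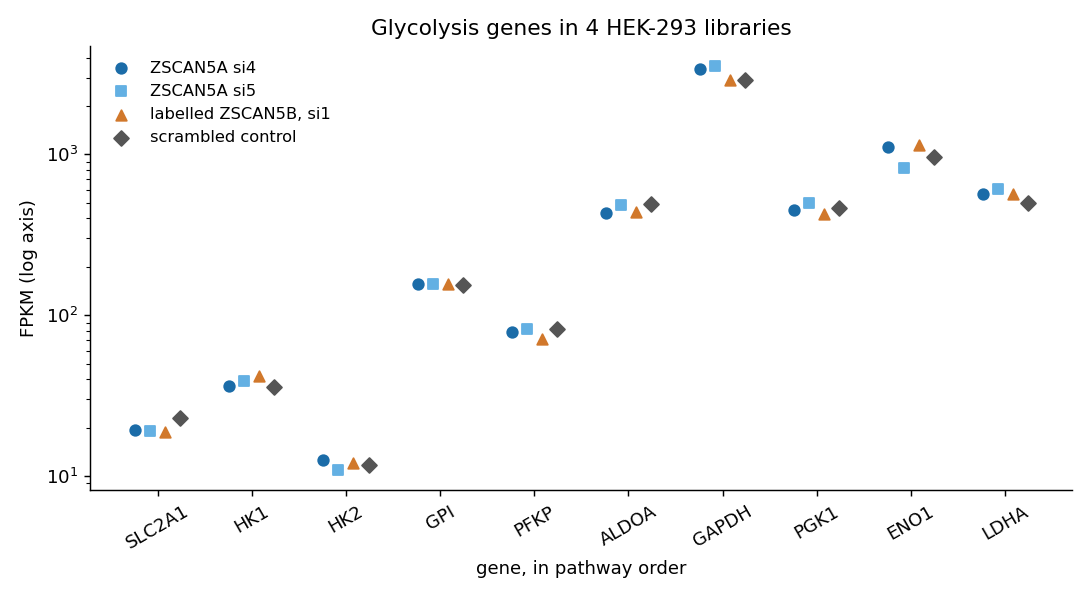
FPKM of the 10 glycolysis genes (log axis) in pathway order, with 1 point per library: ZSCAN5A si4, ZSCAN5A si5, the library labelled ZSCAN5B knockdown (si1) and the scrambled control. The 4 points of a gene lie close together beside the distance from HK2, at 10.9 to 12.5 FPKM, to GAPDH, at 2881 to 3537 FPKM.

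None of the 10 genes passed 1.5-fold in any comparison. With the mean of si4 and si5 against the control 0 of 10 were called, where 3.77% of 12935 genes were called. With the library labelled ZSCAN5B knockdown against the control 0 of 10 were called, where the share of all genes was 4.00%. In the direct comparison of the ZSCAN5A siRNAs with that library it was 0 of 10, beside 1.27% of all genes. Taken singly, si4 against the control called 0 of 10 beside 6.32% of all genes, si5 against the control 0 of 10 beside 3.50%, and si4 against si5 0 of 10 beside 2.53%. For a list of 10 genes a count of 0 is near these background shares and is no result about the members.

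A smaller limit of 0.32 on the log2 scale also called 0 of 10 in each comparison. For the ZSCAN5A siRNAs against the control 18.4% of all genes passed it, and 14.4% of those at 5 FPKM or above. For the library labelled ZSCAN5B knockdown these shares were 19.5% and 16.3%, and for the direct comparison 6.48% and 4.21%. The ratios of the members to the control ran from 0.837 for SLC2A1 to 1.19 for GAPDH with the ZSCAN5A siRNAs, and from 0.821 for SLC2A1 to 1.19 for ENO1 with si1. The median log2 ratio of the 10 genes was 0.01 for the ZSCAN5A siRNAs against the control, beside −0.02 over all genes tested, and 0.00 for the library labelled ZSCAN5B knockdown, beside −0.01. Both comparisons share the 1 control library. In the direct comparison, which does not use the control, the median was 0.04, beside −0.01 over all genes.

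limma, fitted across 13020 genes on log2(FPKM + 1) with the spread taken from si4 and si5 alone, called 0 of the 10 genes in each of the 3 comparisons at an adjusted p under 0.05. It called 0.0768% of genes for the ZSCAN5A siRNAs against the control, 0.115% for the library labelled ZSCAN5B knockdown against the control and 0.115% in the direct comparison. At an unadjusted p under 0.05 it passed 1603, 1292 and 343 genes in these comparisons, and 0 members in each. The lowest adjusted p of a member was 0.41 in limma for the ZSCAN5A siRNAs against the control. This fit has a single residual degree of freedom, and the lone si1 and control libraries are assumed in it to vary like si4 and si5.

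**Figure D2:**
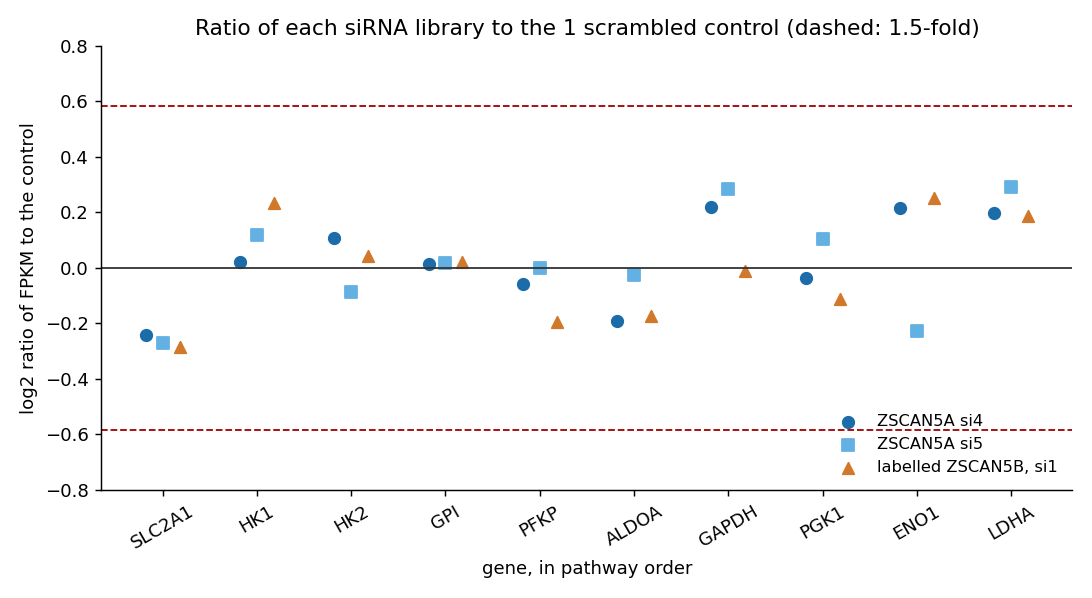
log2 ratio of FPKM to the scrambled control for each gene in pathway order, with 1 point for each of si4, si5 and si1; the dashed lines mark 1.5-fold. Every point lies inside the dashed lines. The 3 points of SLC2A1 lie below 0 and those of LDHA above it, while si4 and si5 stand on opposite sides of 0 for ENO1.

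SLC2A1, the GLUT1 carrier that brings glucose into most cells (chr1:43391046-43424847, hg19 as in all positions here), was at 19.4 FPKM in si4, 19.0 in si5, 18.8 in si1 and 22.9 in the control. The control was the highest of the 4 and the siRNA libraries lay within 1 FPKM of each other. The log2 ratio to the control was −0.26 for the ZSCAN5A siRNAs, with an SD of 0.022 between si4 and si5, and −0.28 for si1. It was the lowest ratio of the 10 genes in both comparisons, yet 18.4% of all genes lay lower in the former and 15.6% in the latter. Genes of similar transcript length and GC content had a median log2 ratio of −0.12 in both.

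HK1 and HK2 encode hexokinases, which phosphorylate glucose and so hold it in the cell. HK1 (chr10:71029756-71161637) was at 36.4 FPKM in si4, 38.8 in si5, 42.1 in si1 and 35.8 in the control. It was highest in si1, at a log2 ratio of 0.23 to the control, while the ZSCAN5A siRNAs gave 0.07 with an SD of 0.068. Genes alike in length and GC had a median of −0.12 in both comparisons, so that with this correction the HK1 ratios were 0.36 for si1 and 0.20 for the ZSCAN5A siRNAs. HK2 (chr2:75059782-75120481) was at 12.5 FPKM in si4, 10.9 in si5, 11.98 in si1 and 11.6 in the control. Here the extremes of the 4 libraries were the ZSCAN5A siRNAs themselves, 0.20 apart on the log2 scale, and the control lay between them.

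GPI, the isomerase that turns glucose phosphate into fructose phosphate (chr19:34855645-34893318), was the steadiest member, with 155.8 FPKM in si4, 156.1 in si5, 156.2 in si1 and 154.1 in the control. Its highest value was 1.01 times its lowest. PFKP, the platelet-type phosphofructokinase of the committed step (chr10:3109712-3178997), was at 78.5 FPKM in si4, 81.5 in si5, 71.4 in si1 and 81.6 in the control. The lowest library was si1, at a log2 ratio of −0.19 to the control, and the ZSCAN5A siRNAs stood 0.16 above it. ALDOA, the aldolase that splits the sugar (chr16:30064411-30081741), was at 429 FPKM in si4, 482 in si5, 436 in si1 and 491 in the control. Its log2 ratios were −0.11 for the ZSCAN5A siRNAs and −0.17 for si1, against a gap of 0.17 between si5 and si4, wider than the former and close to the latter.

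GAPDH, the dehydrogenase that makes NADH in the pathway (chr12:6643585-6647537), was at 3384 FPKM in si4, 3537 in si5, 2881 in si1 and 2905 in the control. Both ZSCAN5A libraries stood above si1 and the control, which nearly coincided. The log2 ratio of the ZSCAN5A siRNAs was 0.25 to the control with an SD of 0.045, and 0.26 to si1, whereas si1 was at −0.01 to the control. Of all genes, 90.0% lay below GAPDH in the former and 95.4% in the direct comparison. GAPDH is widely used to normalise PCR measurements and is the most abundant of the 10, and alone it made up 0.619% of all FPKM in si4, 0.656% in si5, 0.536% in si1 and 0.595% in the control. Without it the other members made up 0.525% of all FPKM in si4, 0.503% in si5, 0.535% in si1 and 0.557% in the control. The control had the lowest FPKM total, so a share and an FPKM ratio to the control can differ. Scaling to equal totals was not tried.

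PGK1, the kinase that yields ATP directly from the pathway (chrX:77359666-77382324), was at 452 FPKM in si4, 498 in si5, 429 in si1 and 463 in the control. The control lay between si4 and si5, with si1 the lowest of the 4. ENO1, the main enolase (chr1:8921059-8939151), was at 1115 FPKM in si4, 819 in si5, 1143 in si1 and 960 in the control. It was the least steady member: si4 and si1 lay above the control, at log2 ratios of 0.22 and 0.25, and si5 below it at −0.23. The log2 ratio of si4 to si5 was 0.45, a 1.36-fold difference, and 97.8% of all genes had a lower signed ratio. The mean of si4 and si5 gave a log2 ratio of 0.01 to the control. ENO1 is a member with a seed match to si5 in its coding sequence, as printed above, while GAPDH, which also has a seed match to si5, was highest in that library; the part of seed matches in these values was not tested.

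LDHA, the lactate dehydrogenase subunit that favours making lactate (chr11:18415936-18429765), was at 570 FPKM in si4, 609 in si5, 566 in si1 and 497 in the control. The control was the lowest of the 4 libraries. The log2 ratio was 0.25 for the ZSCAN5A siRNAs with an SD of 0.067, and 0.19 for si1, the library whose siRNA has a seed match in the LDHA 3′ UTR. Genes of similar length and GC content had a median of 0.09 in the former comparison and of 0.17 in the latter, which left 0.02 of the si1 ratio.

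Counting sides rather than sizes, all 3 siRNA libraries lay on the same side of the control for 6 of the 10 genes: SLC2A1, PFKP and ALDOA below it, and HK1, GPI and LDHA above it. The same held for 66.3% of the 12362 genes at 1 FPKM or above in every library, which share that control. For 6 of the 10 genes, HK1, HK2, PFKP, ALDOA, PGK1 and ENO1, the gap between si4 and si5 was wider than the change of their mean from the control. Many processed pseudogenes of GAPDH, ENO1, LDHA and PGK1 exist in the human genome, and how reads shared with such copies were counted is not given in the sources used here, so the levels of these genes are uncertain to that extent.

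Glycolytic steps often have several isoforms, and the members were weighed against theirs as shares of the FPKM of the family. HK1 made up 74.3% of hexokinase FPKM in si4, 78.0% in si5, 77.8% in si1 and 75.4% in the control, and HK2 nearly all the rest. PFKP made up 43.1%, 45.2%, 41.5% and 45.5% of phosphofructokinase FPKM in the same order, with PFKL between 36.9% and 38.8%. ALDOA was at least 99.3% of aldolase FPKM and ENO1 at least 95.4% of enolase FPKM in every library. LDHA was the smaller lactate dehydrogenase subunit, with 32.1% in si4, 34.6% in si5, 31.6% in si1 and 35.5% in the control. LDHB, which favours the return of lactate to pyruvate, was at 1203 FPKM in si4, 1148 in si5, 1221 in si1 and 899 in the control. All 3 siRNA libraries were above the control for LDHB, at log2 ratios of 0.39 for the ZSCAN5A siRNAs and 0.44 for si1, and the total of the family was 1399 FPKM in the control and between 1760 and 1791 FPKM in the others.

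**Figure D3:**
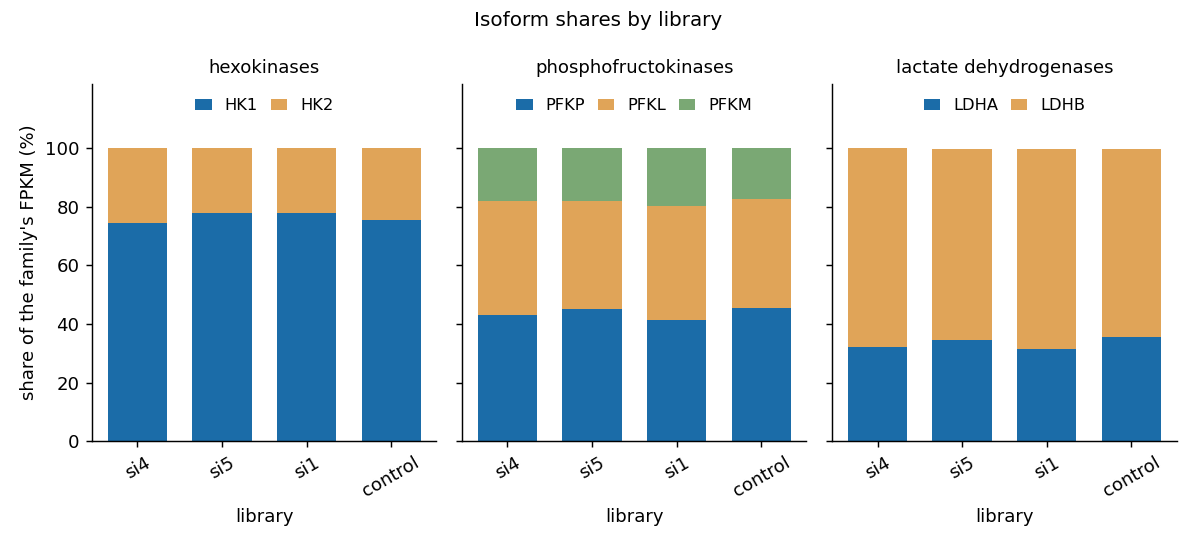
Share of each isoform in the summed FPKM of its family, in percent, for hexokinases, phosphofructokinases and lactate dehydrogenases in the 4 libraries; isoforms at 1% or less are not drawn. HK1 takes 74.3% to 78.0% of its family, PFKP 41.5% to 45.5% and LDHA 31.6% to 35.5%.

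Of 23 other glycolytic enzyme genes 15 passed the expression limit, and 0 were called in the 3 comparisons of the siRNA targets. TPI1, the triose phosphate isomerase, was between 879 and 997 FPKM, and PKM2, the table's symbol for pyruvate kinase M, between 636 and 682 FPKM. ENO2, the neuronal enolase, was at 25.4 FPKM in si4, 35.2 in si5, 31.5 in si1 and 42.9 in the control. Its log2 ratio was −0.50 for the ZSCAN5A siRNAs, with si4 past 1.5-fold on its own at −0.76 and si5 at −0.28, and −0.44 for si1. PGAM1, the phosphoglycerate mutase, was at 362 FPKM in si4 against 516 in si5, 455 in si1 and 448 in the control, and its near-identical copy PGAM4 stood at 23.0 FPKM in si4, 33.5 in si5, 29.4 in si1 and 28.8 in the control; whether reads were shared between them was not tested.

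Of 13 carrier genes for glucose and lactate 10 passed the limit with the ZSCAN5A siRNAs, and 0 were called in the 3 comparisons of the siRNA targets. Taken singly, SLC2A3 was past 1.5-fold in si4 against the control, at a log2 ratio of −0.60, and SLC16A3, a lactate carrier near 1 FPKM, in si4 against si5, at −1.1001. SLC2A3, the GLUT3 carrier, exceeded SLC2A1 in every library, with 28.9 FPKM in si4, 38.3 in si5, 33.7 in si1 and 43.9 in the control. SLC2A14 is its close paralog, and whether reads were shared between them was not tested. Like SLC2A1, SLC2A3 was highest in the control, and the log2 ratio of SLC2A3 was −0.39 for the ZSCAN5A siRNAs and −0.38 for si1. SLC16A1, a lactate carrier, was between 60.3 and 67.0 FPKM, and BSG, its partner in the membrane, between 338.5 and 365 FPKM.

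Among 20 regulators of glycolysis, of which 19 passed the limit, 4 were called for the ZSCAN5A siRNAs against the control and all 4 were lower: MLXIP, MLXIPL, TXNIP and EPAS1. This stands beside 3.77% of all genes, of which 401 of the 488 called were also lower. MLXIP, the glucose-sensing partner of MLX known as MondoA, was at 3.93 FPKM in si4, 5.08 in si5, 5.38 in si1 and 8.33 in the control. It was highest in the control, with log2 ratios of −0.89 for the ZSCAN5A siRNAs and −0.63 for si1, where it was the 1 regulator called. It was also past 1.5-fold in each ZSCAN5A library alone, at −1.08 in si4 and −0.71 in si5.

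TXNIP, a target of MLXIP that restrains glucose uptake, was at 18.7 FPKM in si4, 32.8 in si5, 26.55 in si1 and 38.8 in the control. Its log2 ratio of −0.59 for the ZSCAN5A siRNAs rested on si4, at −1.05, while si5 alone was at −0.24. EPAS1, a hypoxia-inducible factor subunit, was at 7.16 FPKM in si4, 8.77 in si5, 9.48 in si1 and 12.1 in the control, and its call too was lost without si4. MLXIPL, the related factor ChREBP, was between 0.922 and 1.62 FPKM, and its call was lost without si5. After the correction for length and GC content, which had no transcript match for MLXIP, none of the other 3 was called. ARRDC4, another known target of MLXIP, was at 21.8 FPKM in si4, 22.9 in si5, 18.3 in si1 and 21.5 in the control. ARRDC4 was lowest in si1 and MLXIP in si4, and any link between them was not tested. HIF1A was between 20.99 and 25.4 FPKM and MLX between 27.3 and 29.2 FPKM. PDK1, the kinase that holds pyruvate dehydrogenase back, was at 28.6 FPKM in si4 and between 21.2 and 21.5 FPKM in the others.

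The E-box that MYC and the MLX complexes are known to bind was looked for upstream of the members. The motif CACGTG, which reads the same on both strands, was found in the 250 bases before the canonical start of 7.87% of 19894 protein-coding genes and of 1 of the 10 members, LDHA, which had 2 copies. The shorter ACGTG, contained in CACGTG, is a form of the core of the HIF element, and other forms were not searched for. On either strand it was found in 20.5% of genes and 5 of the 10: HK2, ALDOA, GAPDH, PGK1 and LDHA. The starts listed by RefSeq (GRCh38.p14) were also used in place of the canonical start. CACGTG then lay before at least 1 start of 4 of the 10, HK2, ALDOA, GAPDH and LDHA, and of 7.73% of 27305 genes. A gene with more listed starts can match more often, and the members had from 1 start, as for GAPDH, to 7 for HK1. The background was not matched for this, so these shares cannot show an enrichment. The 250 bases before LDHA (chr11:18415860-18416109, plus strand, GRCh37) are shown with CACGTG in capitals; whether any factor was bound there was not tested.
LDHA: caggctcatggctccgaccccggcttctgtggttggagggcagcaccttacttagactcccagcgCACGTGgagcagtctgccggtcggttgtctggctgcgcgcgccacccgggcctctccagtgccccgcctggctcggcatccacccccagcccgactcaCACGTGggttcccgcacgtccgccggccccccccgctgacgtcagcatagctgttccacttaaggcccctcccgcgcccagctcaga

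Of 19 HIF target genes outside glycolysis 18 passed the limit and 1 was called in each of the 3 comparisons, beside 3.77%, 4.00% and 1.27% of all genes. CA12, a membrane carbonic anhydrase, was called lower for the ZSCAN5A siRNAs, with 4.15 FPKM in si4, 3.20 in si5, 5.20 in si1 and 6.13 in the control; the call was lost without si5, at a log2 ratio of −0.56, and after the correction for length and GC content, at −0.51. ADM, the vessel-dilating peptide adrenomedullin, was called lower for si1 against the control at a log2 ratio of −0.60, which a pseudocount of 1 took below the limit, to −0.55. ANKRD37 was called higher in the ZSCAN5A siRNAs than in si1, at 0.60, a call that was lost with si4 alone, at 0.47, with either pseudocount tried and with an expression limit of 5 FPKM. The median log2 ratio of these 18 genes was −0.11 for the ZSCAN5A siRNAs and −0.19 for si1, beside −0.02 and −0.01 over all genes. DDIT4, BNIP3, NDRG1 and FAM162A, the most abundant of the others, were not called in any comparison.

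In the routes that branch from glycolysis, 12 of 14 genes of the pentose phosphate, serine and glycerol branches passed the limit and 0 were called. TKT, the transketolase of the pentose phosphate route, was at 140 FPKM in si4, 127 in si5, 136 in si1 and 106 in the control, and PGD at 142, 126, 144 and 120 FPKM. The control was the lowest library for both. PHGDH, which opens serine synthesis, was at 196 FPKM in si4, 240 in si5, 170 in si1 and 217 in the control. Of 14 genes of gluconeogenesis and pyruvate entry 10 passed the limit and 0 were called, and G6PC was listed at 0 in every library. In the direct comparison 9 of these 10 were lower in the ZSCAN5A siRNAs than in the 1 si1 library, with a median log2 ratio of −0.10, where 53.8% of all genes were lower and the median of all genes was −0.01.

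**Figure D4:**
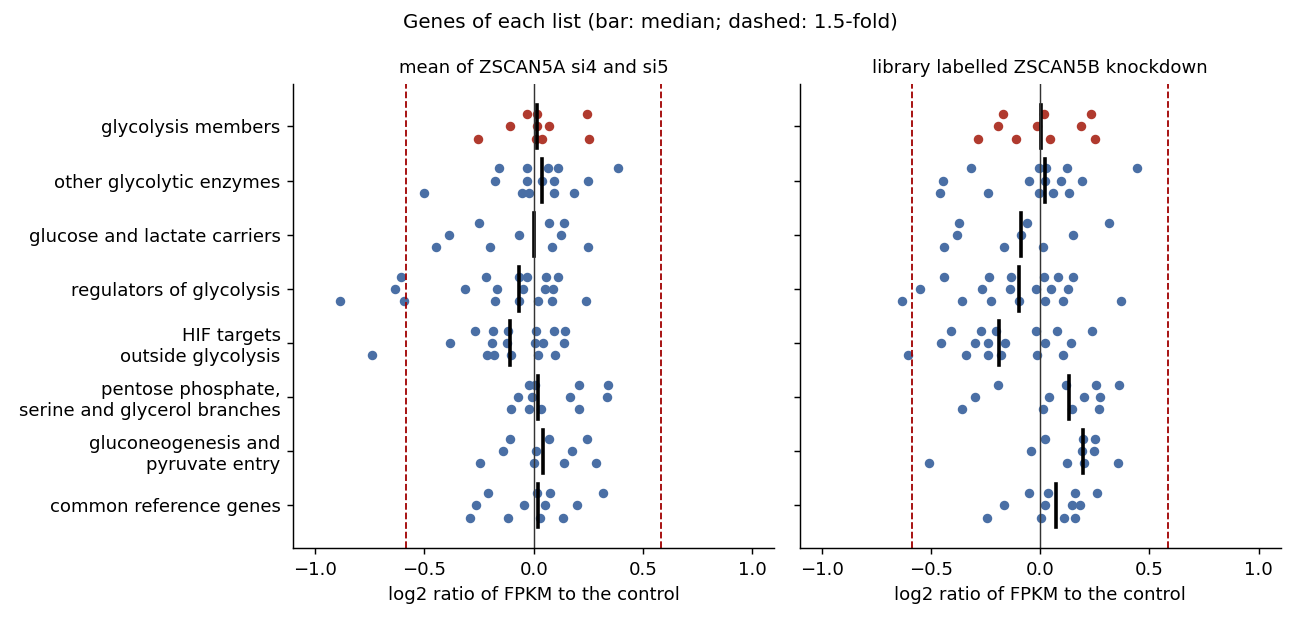
log2 ratio of FPKM to the scrambled control for each gene of 8 lists that passed the expression limit, for the mean of the ZSCAN5A siRNAs (left) and the library labelled ZSCAN5B knockdown (right); black bars are list medians and dashed lines mark 1.5-fold. The 10 members lie between −0.28 and 0.25, and points outside the lines occur among the regulators and the HIF targets.

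GAPDH also belongs to the genes commonly used as references, of which 12 others were examined and 0 were called. RPLP0, a ribosomal protein gene, was at 2048 FPKM in si4, 2130 in si5, 1901 in si1 and 1675 in the control, and ACTB was at 645, 552, 694 and 718 FPKM. RPLP0 was lowest in the control, where ACTB was highest. SDHA was the flattest of them, between 94.6 and 96.0 FPKM. PPIA was at 469 FPKM in si4 against 634 to 708 FPKM in the others. YWHAZ, to which the study normalised its PCR, was at 157 FPKM in si4, 204 in si5, 212 in si1 and 209 in the control.

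The 5 genes whose centred log2 levels over the 4 libraries lay nearest to the mean profile of the members, out of 8631 genes at 5 FPKM or above in every library, were SHISA5, FLYWCH1, ZBTB10, ARID4B and ATP7A, at distances of 0.0070 to 0.016. The mean profile itself was almost flat, from −0.01 in si1 to 0.02 in si4, with members on either side of 0 in each library. GPI was the member closest to it, at a distance of 0.025, and ENO1 the farthest, at 0.39.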

How the data were processed

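The authors sequenced poly(A)-selected RNA libraries and deposited 1 table of FPKM values, 1 column per library. Per the labels, CASAVA 1.8.2, Trimmomatic 0.30, TopHat2 2.1.0 and Cufflinks 2.2.1 were used with hg19; the settings are not given in the sources used here. The labels and the study's methods name different stranded library kits. No raw counts were used. Each siRNA was given to its own cells and had no repeat among the libraries analysed.

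The 10 members and all gene lists were chosen with earlier results of these data known. For a symbol on several rows the row with the highest mean was taken. Ratios were formed from the FPKM as deposited, with no pseudocount, and si4 and si5 were averaged. The naming rule took all members, the targeted genes and the 5 genes nearest to the members' mean profile. It also took every gene of a list past 1.5-fold in a comparison. Up to 4 further genes per list with the highest mean FPKM were added to these. ENO2, PGAM4, SLC2A14, G6PC, SDHA, YWHAZ, PFKL and the RefSeq start counts were added after their values were seen. Relative depth was the modal ratio of values under 0.1 FPKM. Absolute depth, from 941 genes with fragment numbers up to 12 (tolerance 0.2%) and canonical transcript lengths, is approximate. Lengths and GC content came from GENCODE (GRCh37), which covered 94.9% of symbols with a mean of 1 FPKM or above. limma 3.58.1 in R 4.3.3 was the alternative fit, with its spread taken from si4 and si5 and Benjamini-Hochberg adjustment over all genes. It and the fold rule were tested on simulated data with 200 genes changed 4-fold, and each recovered all 200. Smaller changes, such as those near the 1.5-fold limit, were not simulated. Python 3.11.15, NumPy 2.4.6 and pandas 2.3.3 were used. Alternatives were 2 other scalings, pseudocounts of 0.1 and 1, other expression and fold limits, summed rows, a length and GC correction, and leaving out si4 or si5.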

Additional observations from a re-analysis of the deposited data

Results flagged for a closer look

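For 6 of the 45 genes examined by the naming rule, both ZSCAN5A siRNA libraries lay on the other side of the control from the library labelled ZSCAN5B knockdown; the difference was not tested, since si1 and the control are 1 library each, and 10.2% of 12362 genes showed the same pattern. GAPDH was the single member among them, at log2 ratios to the control of 0.22 in si4, 0.28 in si5 and −0.01 in si1, and 0.26 between the ZSCAN5A siRNAs and si1. ANKRD37 differed by 0.60 on the same scale, with 0.02 in si4, 0.25 in si5 and −0.46 in si1 to the control. ARRDC4 differed by 0.29, HIF1A by 0.23, SLC2A8, an intracellular glucose carrier, by 0.17 and TPI1 by 0.10. Groups of 1 or 2 libraries are too small for an outlier to be sought.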

How the results depend on the processing

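The count of members called stayed at 0 in each comparison under every alternative run, including limma and the smaller and larger fold limits. Over all genes the count varied widely between these runs. It reached 2428 for the ZSCAN5A siRNAs against the control, 2508 for si1 against the control and 1895 in the direct comparison. A larger fold limit cannot add a call. limma called 0.0768%, 0.115% and 0.115% of all genes in the same order, so a count of 0 members there is no sign of stability. The median log2 ratio of the members for the ZSCAN5A siRNAs against the control, 0.015, became 0.033 with median-ratio scaling, 0.0056 with upper-quartile scaling and 0.092 with the length and GC correction. For the library labelled ZSCAN5B knockdown the median of 0.0036 became 0.013, −0.011 and −0.032 in the same order. These medians moved by more than the SD of 0.0077 between the medians of si4 and si5. Each scaling divides every gene of a library by the same factor, so those shifts are not particular to the members. For the length and GC correction the cause was not tested. Without si5 the median for the ZSCAN5A siRNAs was 0.019 and without si4 it was 0.0080. In the direct comparison these were 0.027 and 0.059. Of 280 values of single members recomputed, 263 moved by less than the SD between si4 and si5 and 17 by more. Many could not move further, since each member sits on 1 row above every expression limit tried. Leaving out si4 or si5 also shifts their mean by less than that SD. The 263 is thus no measure of robustness. The largest value in size was −0.48, for ENO1 in si5 alone against si1. The same SD was used for si1, which has no spread of its own. No paired analysis was possible because the groups compared share fewer than 2 replicate numbers, and those numbers only name an siRNA or a library. Pseudocounts moved no median by more than that SD, and the expression limits and summed rows could not change the members. For the list counts, a pseudocount of 1 left MLXIP as the 1 regulator called for the ZSCAN5A siRNAs and none for si1, and median-ratio scaling left 3, without TXNIP. The calls of ADM and ANKRD37 were lost with a pseudocount of 1, that of ANKRD37 also with 0.1 and with the limit of 5 FPKM, and that of CA12 with the length and GC correction.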
